A study of Fragaria vesca with 24 samples.

Results

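Among 34006 genes of woodland strawberry (Fragaria vesca), 100 were chosen whose transcript level was higher after 42 d at 2 °C in crowns and in leaves of ‘NCGR1363’, and whose change was larger in ‘NCGR1363’ than in ‘Alta’ in both tissues. ‘NCGR1363’ is the freezing-susceptible and ‘Alta’ the freezing-tolerant parent of a mapping population, each a single accession. The study sequenced RNA of crowns and leaves of cold-treated plants (42 d at 2 °C, with no agent named in the labels) and of untreated plants (0 h), in 24 RNASeq libraries that form 8 groups of 3 replicates: ‘NCGR1363’ and ‘Alta’, crown and leaf, 42 d and 0 h. All plants were runner-propagated and grown in the warm under long days, and by the study's methods the acclimated plants stood under shorter days, so temperature, day length and the age of the plant cannot be told apart in any 42 d against 0 h comparison.

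Members were chosen by L, the mean over the libraries of a group of log2(CPM + 0.5), where CPM is the count per 1000000 counts of its library. The change is L at 42 d minus L at 0 h, and the difference is the change in ‘NCGR1363’ minus the change in ‘Alta’. Genes needed a ‘NCGR1363’ change of at least 1 in both tissues and a mean of at least 5 CPM in both ‘NCGR1363’ groups at 42 d, which 372 genes met, and the 100 with the largest value of the smaller of their 2 differences were taken. Every cold response, every genotype difference and the interaction of the 2 was therefore used in the choice, and their values are a description.

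Plants held at low but non-freezing temperature become more tolerant of freezing, a process called cold acclimation. It is known for large changes in transcription, among them the C-repeat binding factors and the cold-regulated genes they switch on, and for the accumulation of dehydrins, soluble sugars and altered membrane lipids. In strawberry the crown, a short stem that carries the meristems, is the organ that has to survive winter, while leaves are replaced in spring.

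Libraries held 12818719 to 18487934 counts in all. The library labelled ‘Alta’ crown 42 d replicate 3 was left out of the choice. Across 20669 expressed genes, which are not independent replicates, Pearson's r of its L with untreated ‘Alta’ leaves was 0.981 to 0.991, and with the other cold-treated ‘Alta’ crowns 0.712 to 0.730, so ‘Alta’ crowns at 42 d rest on 2 libraries wherever it is not named. For 88 of the 100 members it was nearer to the mean of ‘Alta’ leaves at 0 h than to that of ‘Alta’ crowns at 42 d. The r of ‘NCGR1363’ leaf 42 d replicate 2 with its own group was 0.926 to 0.959, against 0.974 to 0.994 within the other 7 groups. Names come only from a list of 896 genes of the freezing tolerance interval on chromosome 2, which holds 2 members, so the other 98 are given by their identifiers, and the markers of leaf and crown were not checked here.

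The list was sorted by the smaller of the crown and leaf difference, so a fall along it was fixed by the choice. Towards its end the stronger induction in ‘NCGR1363’ was slight. The smaller difference was 3.33 in FvH4_7g22630, at least 1 in 18 members, at least 0.5 in 45, at least 0.25 in 74 and at least 0.1 in 93. Just inside rank 100 it was 0.040 in FvH4_4g22640 and 0.037 in FvH4_2g28720, and just outside it was 0.036 in FvH4_4g35420 and 0.035 in FvH4_4g17540. Among the 372 genes, 107 (28.8%) had a larger change in ‘NCGR1363’ in both tissues, 102 (27.4%) a smaller one in both, and 163 had differences of opposite sign. All 100 members are drawn from those 107, so the list is nearly the whole of that class and not its extreme.

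**Figure D1:**
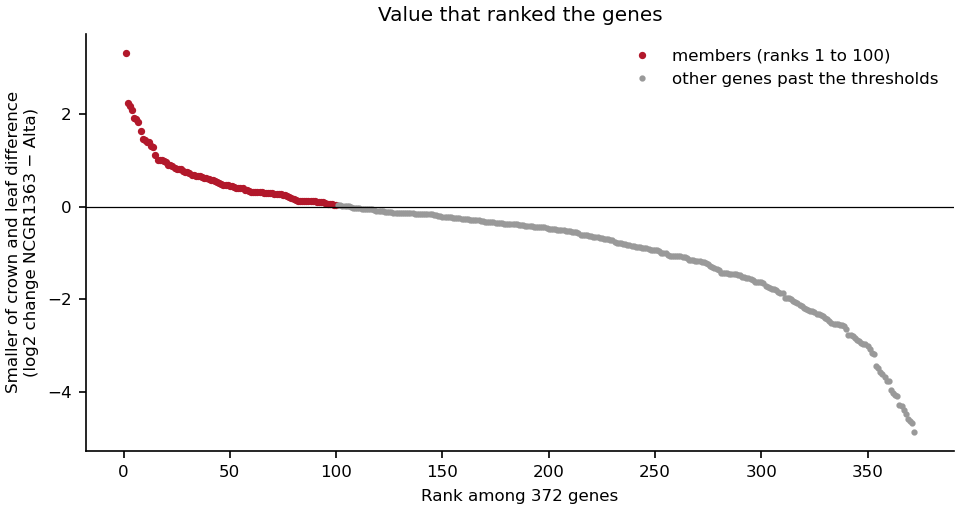
The value that ranked the genes, the smaller of the crown and leaf difference (vertical axis, log2 change of ‘NCGR1363’ minus that of ‘Alta’), against rank (horizontal axis) for the 372 genes past the thresholds. Each point is a gene, the 100 members are in red, and the curve passes from 3.33 at rank 1 to 0.037 at rank 100.

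In ‘NCGR1363’ the median change of the members was 1.33 in crowns and 1.65 in leaves, against 0.61 and 0.92 in ‘Alta’. Over the 372 genes they were 1.39 and 1.63 in ‘NCGR1363’ and 1.26 and 1.88 in ‘Alta’, and over all expressed genes they were -0.023 and 0.11 in ‘NCGR1363’ and -0.15 and 0.25 in ‘Alta’. The members thus had a ‘NCGR1363’ change near that of the 372 genes and stood apart by the lower ‘Alta’ change, as the choice requires. The ‘Alta’ change in crowns was 1 or more in 26 members, between 0 and 1 in 47, and 0 or less in 27, of which 10 had -1 or less. In ‘Alta’ leaves it was 1 or more in 46 members, between 0 and 1 in 45, and 0 or less in 9, of which 2 had -1 or less. Only 17 members had an ‘Alta’ change of 1 or more in both tissues, and 7 had one of 0 or less in both. Those 7 include FvH4_1g20810 and FvH4_5g26181, with 0 counts in every ‘Alta’ library, and FvH4_3g42560, with no more than 4 in any. The 27 of crowns and the 9 of leaves include these genes too, and the 27 also FvH4_4g26940, with 0 counts in the ‘Alta’ crown libraries used. For such genes the ‘Alta’ values carry no usable direction.

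**Figure D2:**
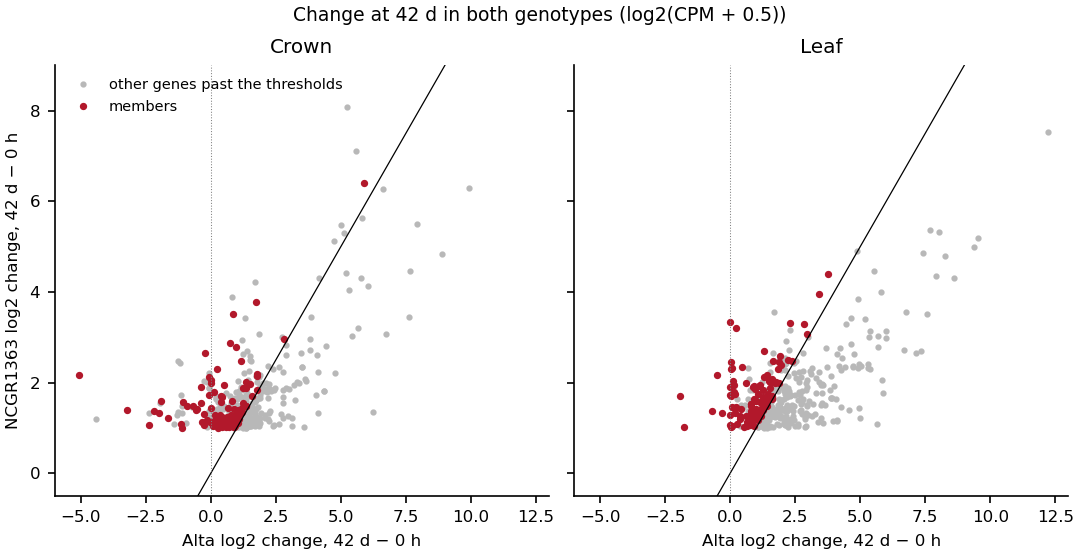
Change at 42 d against 0 h on the log2(CPM + 0.5) scale in ‘NCGR1363’ (vertical axis) and in ‘Alta’ (horizontal axis), for crowns and leaves. Points are genes, the 100 members in red and the other genes past the thresholds in grey, the solid line marks equal change, and 27 members lie at or left of an ‘Alta’ change of 0 in crowns and 9 in leaves.

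All 3 ‘NCGR1363’ crown libraries at 42 d exceeded all 3 at 0 h for 100 members (28.9% of expressed genes), and the same held for 93 members in leaves (28.8%). ‘Alta’ libraries at 42 d exceeded those at 0 h without overlap for 62 members in crowns (27.1%) and 71 in leaves (42.7%), lay below them for 15 (42.9%) and 4 (19.9%), and overlapped them for 23 and 25. Of the 7 members whose ‘NCGR1363’ leaf libraries overlapped between times, 2 still did so without ‘NCGR1363’ leaf 42 d replicate 2, which was the lowest library of its group for 62 members. The edgeR cold response was called in ‘NCGR1363’ for 100 members in crowns (58.9% of all tested genes were called, 29.1% as higher) and for 88 in leaves (31.4%, 17% as higher), all of them higher at 42 d. In ‘Alta’ it was called for 72 of 93 members tested in crowns (57.7%), 60 higher (27.7%) and 12 lower (30%), and for 67 of 94 in leaves (55.9%), 61 higher (27.4%) and 6 lower (28.4%). Since these contrasts chose the members, nothing is read from those counts.

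The interaction of genotype and cold, fitted with edgeR over the 12 libraries of a tissue (11 in crowns), was called for 45 members in crowns (35.9% of all tested genes, 21% with the larger change in ‘NCGR1363’) and for 39 in leaves (17.7% and 10.6%), each with the larger change in ‘NCGR1363’. It was called in both tissues for 16 members, in crowns alone for 29, in leaves alone for 23 and in neither for 32. Of the 18 members whose smaller difference was at least 1, the interaction was called in both tissues for 9 and in neither for 2, and of the 26 under 0.25 in both tissues for 0 and in neither for 14. These calls rest on the contrast that ranked the members, and nothing is read from them or from their split. With the left-out library in the fit, the crown count was 15, and 6.43% of all tested genes were called.

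The leading member was FvH4_7g22630, with a coding length of 1617 bases in its only isoform. Its ‘NCGR1363’ crown libraries held 81.4, 63.2 and 98.4 CPM at 42 d and 23.7, 30.4 and 36.7 CPM at 0 h, against 3.00 and 1.92 CPM at 42 d and 38.3, 21.7 and 23.6 CPM at 0 h in ‘Alta’ crowns. In leaves there were 18.3, 4.39 and 15.9 CPM at 42 d and 0.270, 1.31 and 0.544 CPM at 0 h in ‘NCGR1363’, against 20.3, 19.9 and 30.7 CPM at 42 d and 21.1, 22.4 and 25.8 CPM at 0 h in ‘Alta’. Cold-treated ‘NCGR1363’ crowns were thus the highest of the 4 crown groups and cold-treated ‘Alta’ crowns the lowest, without overlap, while ‘Alta’ leaves had overlapping libraries at both times and ‘NCGR1363’ leaves were far below them at 0 h. The changes were 1.40 in crowns and 3.34 in leaves of ‘NCGR1363’, against -3.24 and 0.0088 in ‘Alta’. The left-out library held 24.4 CPM, within the range of ‘Alta’ leaves at 0 h.

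Members with a lower level in cold-treated ‘Alta’ crowns made up a first group. In 15 members all ‘NCGR1363’ crown libraries were higher and both ‘Alta’ crown libraries lower at 42 d than at 0 h (4.32% of expressed genes), and 3 members did so in leaves (0.876%), FvH4_1g28620 in both tissues. With the left-out library the crown count was 12. One of the 15, FvH4_3g42560, had 1 and 1 counts in ‘Alta’ crowns at 42 d and 2, 4 and 4 at 0 h, so its ‘Alta’ values carry no usable direction. FvH4_5g13590, second in rank, had 79.3, 73.1 and 76.0 CPM in ‘NCGR1363’ crowns at 42 d and 27.6, 37.7 and 23.4 CPM at 0 h, against 35.7 and 6.06 CPM at 42 d and 80.4, 60.6 and 71.6 CPM at 0 h in ‘Alta’ crowns. The crown groups of each genotype did not overlap between times and had changes of opposite sign, 1.38 in ‘NCGR1363’ and -2.20 in ‘Alta’, although the ‘Alta’ libraries at 42 d lay far apart. In leaves its ‘NCGR1363’ libraries held 7.63, 29.4 and 1.86 CPM at 42 d and 0.216, 1.69 and 2.58 CPM at 0 h and overlapped, and every ‘Alta’ leaf library was under 1 CPM.

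FvH4_1g28620 showed the same crossing in both tissues at low and closely spaced levels. Crowns held 8.55, 7.25 and 7.28 CPM at 42 d and 3.07, 4.47 and 3.34 CPM at 0 h in ‘NCGR1363’, against 4.71 and 4.08 CPM at 42 d and 9.83, 10.2 and 10.2 CPM at 0 h in ‘Alta’. Leaves held 16.5, 12.6 and 17.9 CPM at 42 d and 5.35, 5.45 and 6.18 CPM at 0 h in ‘NCGR1363’, against 7.64, 7.49 and 6.69 CPM at 42 d and 12.3, 14.0 and 10.6 CPM at 0 h in ‘Alta’. At 0 h the ‘NCGR1363’ libraries lay below all ‘Alta’ libraries in each tissue, and at 42 d they lay above them. FvH4_4g33441 had a similar course in crowns, with 18.3, 25.5 and 20.5 CPM at 42 d and 6.70, 8.55 and 6.81 CPM at 0 h in ‘NCGR1363’, against 6.64 and 5.76 CPM at 42 d and 11.1, 11.9 and 13.5 CPM at 0 h in ‘Alta’.

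The widest crown difference of all members, 7.26, belonged to FvH4_3g00840, which ranked only 84th because its leaf difference was 0.12. Its ‘NCGR1363’ crown libraries held 10.3, 7.03 and 9.82 CPM at 42 d and 1.50, 1.60 and 1.67 CPM at 0 h, against 5.35 and 4.74 CPM at 42 d and 165, 128 and 313 CPM at 0 h in ‘Alta’. The value rests on the level of untreated ‘Alta’ crowns, which was far above every other group, and in cold-treated crowns the ‘NCGR1363’ libraries were the higher without overlap. FvH4_1g18550 shared the high level of untreated ‘Alta’ crowns, with 399.9, 492 and 455 CPM at 42 d and 137, 149 and 156 CPM at 0 h in ‘NCGR1363’ crowns, against 317 and 714 CPM at 42 d and 1815, 1811 and 1757 CPM at 0 h in ‘Alta’ crowns. In cold-treated crowns its libraries overlapped between the genotypes. Even FvH4_2g28720, last of the 100, had a crown difference of 2.65 beside a leaf difference of 0.037. Over all members the median difference was 0.74 in crowns and 0.60 in leaves, and it was the larger in crowns for 62.

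Members with a lower level in cold-treated ‘Alta’ leaves made up a second group, led by the leaf-abundant FvH4_3g33490. FvH4_3g33490 had 607, 881 and 757 CPM in ‘NCGR1363’ leaves at 42 d and 243, 214 and 222 CPM at 0 h, against 194, 104 and 195 CPM at 42 d and 631, 611 and 576 CPM at 0 h in ‘Alta’ leaves. All libraries of cold-treated ‘NCGR1363’ leaves lay above those of untreated ones, and all libraries of cold-treated ‘Alta’ leaves lay below, with changes of 1.71 and -1.93. Crowns held 160.4, 112 and 142 CPM at 42 d and 35.7, 29.7 and 28.2 CPM at 0 h in ‘NCGR1363’, against 9.35 and 7.55 CPM at 42 d and 10.2, 7.36 and 8.96 CPM at 0 h in ‘Alta’, where the times overlapped. The left-out library held 453 CPM of this transcript, and with it the smaller difference was 0.28, against 2.17 without it. FvH4_7g00250 was similar in ‘Alta’ leaves, with 70.5, 32.2 and 91.1 CPM at 42 d and 173, 222 and 215 CPM at 0 h, but its ‘NCGR1363’ leaf libraries overlapped, with 837, 34.1 and 500.4 CPM at 42 d and 412, 66.9 and 61.5 CPM at 0 h, and its smaller difference was that of crowns, with 281, 279.9 and 244 CPM at 42 d and 129, 125 and 113 CPM at 0 h in ‘NCGR1363’, against 63.9 and 33.7 CPM at 42 d and 53.8, 63.3 and 59.7 CPM at 0 h in ‘Alta’.

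The most abundant member was FvH4_4g27330, a gene of 543 coding bases, whose counts alone made up much of the members' share in leaves. Its leaf libraries held 15015, 24545 and 17299 CPM at 42 d and 6982, 7149.6 and 7213 CPM at 0 h in ‘NCGR1363’, against 13817, 13473 and 15411 CPM at 42 d and 8034, 8457 and 8020.5 CPM at 0 h in ‘Alta’. Cold-treated leaves were the higher in both genotypes and the genotypes overlapped in part at 42 d, while at 0 h all ‘NCGR1363’ libraries were the lower. Crowns held 409, 452 and 479 CPM at 42 d and 23.4, 85.5 and 28.2 CPM at 0 h in ‘NCGR1363’, against 321 and 577 CPM at 42 d and 213, 285 and 214 CPM at 0 h in ‘Alta’, so that the crown difference of 2.65 lay mainly in the level of untreated crowns, which was below that of ‘Alta’ in all ‘NCGR1363’ libraries. The left-out library had 8594 CPM, a level otherwise seen in leaves.

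Together the members took 1.24 to 1.31% of the counts of ‘NCGR1363’ crown libraries at 42 d and 0.458 to 0.493% at 0 h, against 0.697 to 0.727% at 42 d and 0.719 to 0.739% at 0 h in ‘Alta’ crowns. In leaves the shares were 3.05 to 3.82% at 42 d and 1.18 to 1.21% at 0 h in ‘NCGR1363’, against 2.30 to 2.61% at 42 d and 1.43 to 1.51% at 0 h in ‘Alta’. Without FvH4_4g27330 the leaf shares were 1.37 to 1.55% and 0.463 to 0.516% in ‘NCGR1363’, against 0.949 to 1.07% and 0.625 to 0.662% in ‘Alta’. As in all bulk tissue, fewer cells that carry a transcript and less transcript per cell cannot be told apart.

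Further abundant members fell into leaf and crown types. FvH4_6g39260 was higher in crowns than in leaves in ‘NCGR1363’, with 4652, 3292 and 3539 CPM at 42 d and 1836, 1831 and 1693 CPM at 0 h in ‘NCGR1363’ crowns, against 837 and 509 CPM at 42 d and 1621, 1412 and 1362 CPM at 0 h in ‘Alta’ crowns. FvH4_5g33560 had the same course, with 2776, 3667 and 3015 CPM at 42 d and 1147, 1279.6 and 1139 CPM at 0 h in ‘NCGR1363’ crowns, against 947 and 1077 CPM at 42 d and 1532, 1474 and 1481 CPM at 0 h in ‘Alta’ crowns. In both, cold-treated crowns were above untreated crowns in ‘NCGR1363’ and below them in ‘Alta’, without overlap. In leaves FvH4_6g39260 held 989.9, 430.4 and 873 CPM at 42 d and 174, 271 and 174 CPM at 0 h in ‘NCGR1363’, against 724, 678 and 1083 CPM at 42 d and 268, 397 and 363 CPM at 0 h in ‘Alta’, where cold-treated crowns and leaves overlapped. Both genes were higher in leaves at 42 d in each genotype, with changes of 1.83 and 1.86 in ‘NCGR1363’, against 1.26 and 0.97 in ‘Alta’.

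FvH4_5g00440 and FvH4_1g03260 were leaf transcripts with a tight spread. FvH4_5g00440 had 1150.3, 1028 and 1128 CPM at 42 d and 311, 252 and 248 CPM at 0 h in ‘NCGR1363’ leaves, against 568, 544 and 577 CPM at 42 d and 493, 539 and 546 CPM at 0 h in ‘Alta’ leaves. FvH4_1g03260 had 940.2, 986 and 1033 CPM at 42 d and 442, 408 and 379.7 CPM at 0 h in ‘NCGR1363’ leaves, against 708, 729 and 735 CPM at 42 d and 549, 536 and 583 CPM at 0 h in ‘Alta’ leaves. In both genes untreated ‘NCGR1363’ leaves were the lowest of the 4 leaf groups and cold-treated ones the highest, with no overlap between the genotypes at either time. FvH4_4g36890 and FvH4_7g16280 had leaf differences of 0.63 and 0.81, beside ‘Alta’ leaf changes of 0.62 and 1.66. For FvH4_7g16280 the smaller difference was that of crowns, 0.24. With the left-out library, the smaller difference was 0.33 in FvH4_5g00440, 0.27 in FvH4_1g03260 and -0.061 in FvH4_4g36890, which would then not be a member, against 1.31, 0.89 and 0.63 without it.

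**Figure D3:**
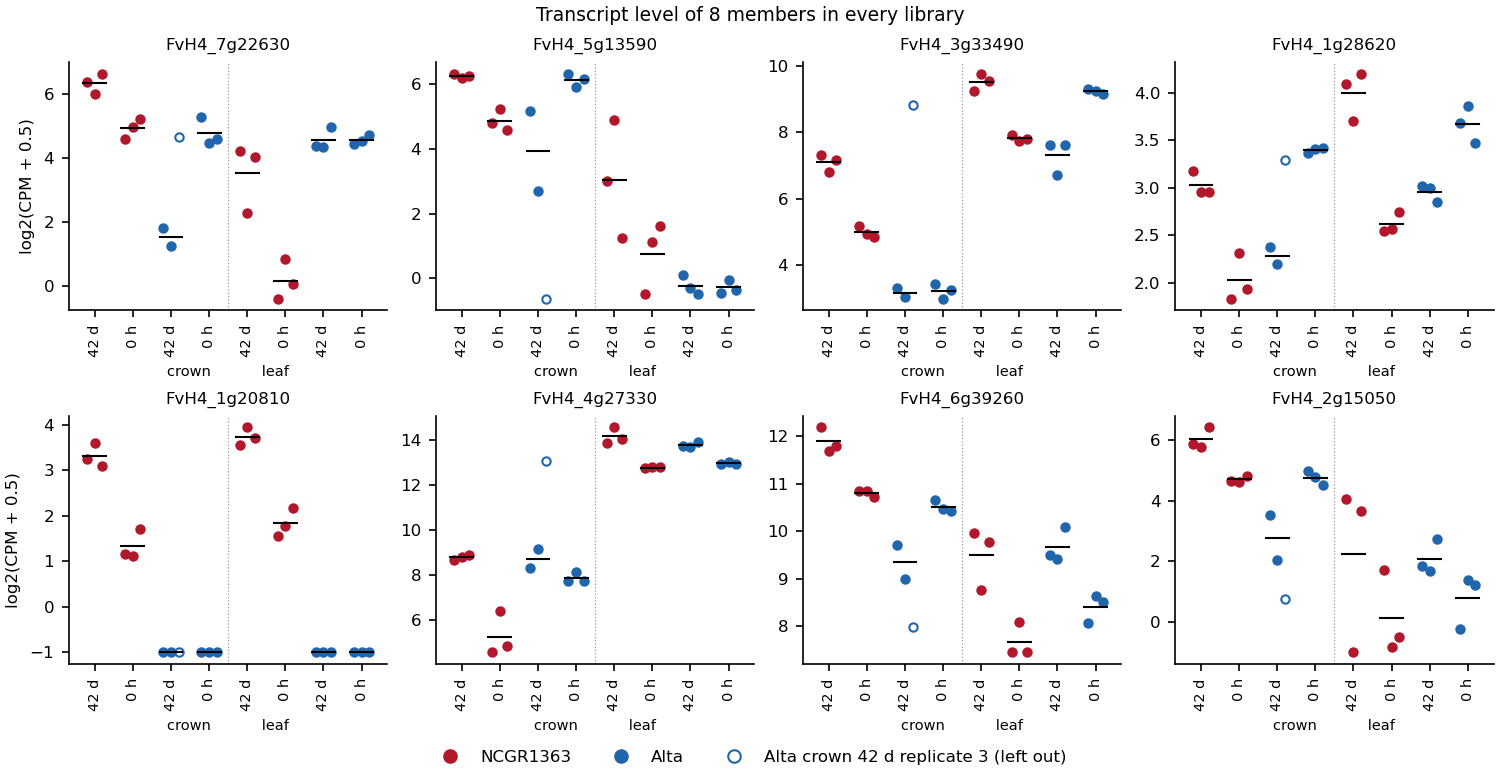
Transcript level on the log2(CPM + 0.5) scale (vertical axis) of 8 members in every library, with crowns left and leaves right of the dotted line. Red points are ‘NCGR1363’ and blue points ‘Alta’ libraries at 42 d and 0 h, black bars are group means, and the open circle is the left-out library, which held 453 CPM of FvH4_3g33490 against 9.35 and 7.55 CPM in the other cold-treated ‘Alta’ crowns.

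Low-abundance members among the 12 highest ranks differed mainly by their level in ‘Alta’. FvH4_1g20810 held 9.08, 11.7 and 8.03 CPM at 42 d and 1.75, 1.67 and 2.78 CPM at 0 h in ‘NCGR1363’ crowns and 11.3, 14.9 and 12.6 CPM at 42 d and 2.43, 2.94 and 4.01 CPM at 0 h in its leaves, against 0 counts in all 12 ‘Alta’ libraries. FvH4_5g26181 held 17.5, 16.3 and 19.5 CPM at 42 d and 5.57, 7.28 and 5.84 CPM at 0 h in ‘NCGR1363’ crowns and 13.2, 12.5 and 12.3 CPM and 2.76, 3.76 and 4.15 CPM in its leaves, again against 0 counts in all 12 ‘Alta’ libraries. For these genes the difference is the ‘NCGR1363’ change itself, and no change of ‘Alta’ could be measured. Against a floor of 3 counts per library, the ‘NCGR1363’ mean at 42 d was at least 48.7-fold higher in crowns and 59.0-fold higher in leaves for FvH4_1g20810, and at least 90.3-fold and 57.8-fold higher for FvH4_5g26181, a bound that covers counting error only.

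Another pair was close to this pattern. FvH4_3g42560 held 65.5, 98.9 and 88.3 CPM at 42 d and 20.3, 22.1 and 23.6 CPM at 0 h in ‘NCGR1363’ crowns and 142, 100.5 and 122 CPM and 45.3, 52.5 and 50.2 CPM in its leaves, against no more than 4 counts in any ‘Alta’ library. FvH4_4g26940 had 13.3, 17.3 and 16.8 CPM at 42 d and 3.88, 3.61 and 2.85 CPM at 0 h in ‘NCGR1363’ crowns, against 2 counts at most in any ‘Alta’ library. These 4 members were the only ones under 0.5 CPM in every ‘Alta’ library, and they were also the only such genes among the 372 (1.08%). Over all expressed genes the share under 0.5 CPM in every ‘Alta’ library was 2.49%.

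The reverse arrangement was seen in FvH4_1g01230, the longest member with 3264 coding bases. Crowns held 7.84, 9.93 and 8.15 CPM at 42 d and 2.07, 2.40 and 1.95 CPM at 0 h in ‘NCGR1363’, against 50.9 and 54.7 CPM at 42 d and 46.9, 49.4 and 49.1 CPM at 0 h in ‘Alta’. Leaves held 14.7, 4.05 and 11.2 CPM at 42 d and 1.89, 1.50 and 2.17 CPM at 0 h in ‘NCGR1363’, against 43.8, 28.5 and 39.0 CPM at 42 d and 24.8, 23.4 and 24.1 CPM at 0 h in ‘Alta’. Every ‘NCGR1363’ library stayed below every ‘Alta’ library at both times. Of the other low members, FvH4_2g39680 had 7.60, 6.45 and 6.87 CPM at 42 d and 2.63, 2.07 and 1.53 CPM at 0 h in ‘NCGR1363’ crowns and under 1 CPM in all ‘Alta’ crown libraries. FvH4_2g32900 had 10.2, 8.85 and 18.7 CPM at 42 d and 4.51, 3.67 and 4.31 CPM at 0 h in ‘NCGR1363’ crowns, against 0.0714 and 0.120 CPM at 42 d and 0.726, 0.560 and 0 CPM at 0 h in ‘Alta’ crowns. In leaves it had 23.3, 7.97 and 23.8 CPM at 42 d and 6.004, 6.51 and 4.69 CPM at 0 h in ‘NCGR1363’, against 17.7, 6.24 and 9.13 CPM at 42 d and 8.29, 11.2 and 9.59 CPM at 0 h in ‘Alta’, so the low ‘Alta’ level was that of crowns. The left-out library held 14.4 CPM, and with it the smaller difference of FvH4_2g32900 was 0.41, against 1.39 without it.

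FvH4_3g07650 rests on few reads at 0 h, with 4.87, 6.53 and 4.04 CPM at 42 d and 0.313, 0.334 and 0.278 CPM at 0 h in ‘NCGR1363’ crowns, against 0.999 and 0.180 CPM at 42 d and 0, 0.0701 and 0 CPM at 0 h in ‘Alta’ crowns. Its ‘NCGR1363’ leaf libraries held 0.856, 14.7 and 8.60 CPM at 42 d and 0, 0.188 and 0.204 CPM at 0 h, against 1.14, 4.68 and 0.906 CPM at 42 d and 1.90, 1.09 and 1.43 CPM at 0 h in ‘Alta’ leaves. The ‘NCGR1363’ groups did not overlap between times in either tissue, and the ‘Alta’ leaf groups did.

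Both members of the freezing tolerance interval carry a name. FvH4_2g15050 is listed as a basic blue protein, a small copper protein of the plantacyanin type, with 384 coding bases in its leading isoform. It held 58.2, 55.0 and 85.7 CPM at 42 d and 24.9, 24.4 and 27.8 CPM at 0 h in ‘NCGR1363’ crowns, against 10.99 and 3.60 CPM at 42 d and 31.4, 27.3 and 22.5 CPM at 0 h in ‘Alta’ crowns, so the genotypes overlapped at 0 h and stood apart at 42 d. In leaves it held 16.4, 0 and 12.1 CPM at 42 d and 2.81, 0.0626 and 0.204 CPM at 0 h in ‘NCGR1363’, against 3.07, 2.73 and 6.13 CPM and 0.355, 2.09 and 1.86 CPM in ‘Alta’, with 0 counts in 1 cold-treated ‘NCGR1363’ leaf library.

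FvH4_2g17250 is listed as chloride channel protein CLC-e, an anion channel family member that in Arabidopsis is found in chloroplast thylakoid membranes. Crowns held 22.9, 24.4 and 23.4 CPM at 42 d and 7.26, 8.48 and 7.23 CPM at 0 h in ‘NCGR1363’, against 9.35 and 7.43 CPM at 42 d and 6.14, 6.59 and 5.83 CPM at 0 h in ‘Alta’. Leaves held 76.6, 134 and 109.6 CPM at 42 d and 37.2, 54.3 and 63.6 CPM at 0 h in ‘NCGR1363’, against 90.8, 109 and 98.1 CPM at 42 d and 59.5, 51.3 and 48.0 CPM at 0 h in ‘Alta’. The genotypes overlapped in leaves at both times, and in crowns all ‘NCGR1363’ libraries lay above those of ‘Alta’ at 42 d and, by less, at 0 h. The interval held 2.00% of the members and 2.54% of expressed genes. Keyword lists of functions could be searched only in the names of the interval, so they say nothing about the other 98 members.

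The difference between the genotypes had 2 parts, the level before and the level after cold. Of the members, 66 had a lower mean L in ‘NCGR1363’ than in ‘Alta’ in crowns at 0 h and 75 in leaves at 0 h, while 72 and 80 had a higher one at 42 d. The median of ‘NCGR1363’ minus ‘Alta’ was 0.32 in crowns at 42 d and -0.29 at 0 h, and 0.39 in leaves at 42 d and -0.29 at 0 h. Over all expressed genes the medians at 42 d and 0 h were 0.15 and 0.019 for crowns and -0.034 and 0.054 for leaves. Over the 372 genes past the thresholds they were -0.37 and -0.40 for crowns and -0.21 and 0.0097 for leaves. A lower level in untreated ‘NCGR1363’ crowns was thus shared by those 372 genes, while in untreated leaves their median was near 0. In crowns 38 members were below ‘Alta’ at 0 h and above it at 42 d, 28 were below at both times and 34 above at both, and in leaves the counts were 55, 20 and 25. Libraries of the genotypes did not overlap at 42 d for 53 members with ‘NCGR1363’ above (42.3% of expressed genes) and 18 with it below (24.7%) in crowns, and for 42 (14%) and 7 (21.1%) in leaves. At 0 h the counts were 21 above (34.2%) and 53 below (32.2%) in crowns, and 15 above (22.8%) and 40 below (14.4%) in leaves.

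**Figure D4:**
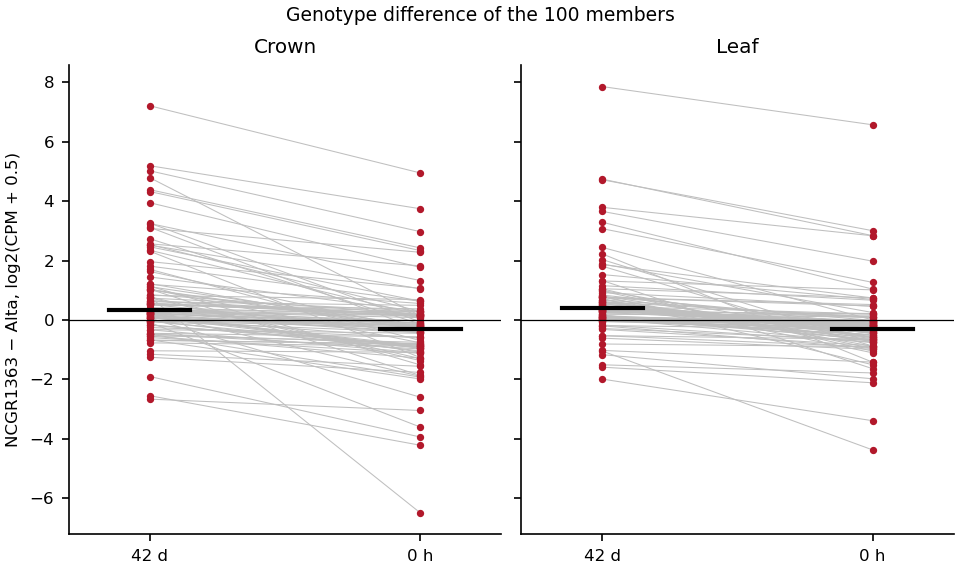
Genotype difference of the 100 members (vertical axis, ‘NCGR1363’ minus ‘Alta’ on the log2(CPM + 0.5) scale) at 42 d and at 0 h, in crowns and leaves. Each grey line joins the 2 values of a member, black bars are medians, which lie at 0.32 and -0.29 in crowns and at 0.39 and -0.29 in leaves, and every line is higher at 42 d because of how members were chosen.

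Scaling moved these values. By column totals the median difference of all expressed genes was 0.13 in crowns and -0.10 in leaves, and with edgeR's TMM factors it was 0.014 and 0.0036. Relative to that shift, 93 members lay above the median of all expressed genes in crowns and 100 in leaves. The leaf count was fixed by the choice, since every member had a difference above 0 and the leaf median lay below it. The crown count rests on values used in the choice as well, so both are a description. With TMM factors the crown difference was below 0 in 8 members, among them FvH4_2g10110 and FvH4_5g13870, and the leaf difference was above 0 in all 100.

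Crown against leaf was a contrast that the choice did not use, so it was tested in each genotype and time. Members were more often leaf than crown transcripts, and so were the 372 genes, except in ‘Alta’ at 0 h. In ‘NCGR1363’ at 42 d, 11 of 100 members tested were higher in crowns and 52 lower at an edgeR FDR of at most 0.05 (27.1% and 28.4% of all 19241 genes tested, and 16.9% and 40.9% of the 372 genes). In ‘NCGR1363’ at 0 h, 17 of 99 were higher and 52 lower (32.6% and 33.1% of all genes, and 20.5% and 48.6% of those of the 372 genes tested). In ‘Alta’ at 42 d, 10 of 96 were higher and 49 lower (21% and 23.8%, and 19.8% and 31.2% of the 372 genes). In ‘Alta’ at 0 h, 25 of 95 were higher and 56 lower (37.1% and 36%, and 41.8% and 40.7%). The shares of the 372 genes are of those tested. The median log2 fold change of crown over leaf was -0.85 and -0.996 in ‘NCGR1363’ at 42 d and 0 h, and -0.84 and -0.97 in ‘Alta’, against -0.46, -0.53, -0.11 and 0.035 over the 372 genes and 0.0032, 0.040, 0.015 and 0.022 over all genes tested. The 372 genes had to be detected in both tissues of ‘NCGR1363’ at 42 d, and no test compared the members with them.

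Of 94 members tested in all 4 comparisons, 40 were called higher in leaves in each (16.1% of all genes tested in all 4, and 24.2% of such genes among the 372), and 4 were called higher in crowns in each (11.7% and 7.14%). Among the first, FvH4_4g27330 had log2 fold changes of crown over leaf of -5.78 (standard error 0.44, edgeR FDR 0.00011) and -7.91 (standard error 0.62, edgeR FDR 2.7e-05) in ‘NCGR1363’ at 42 d and 0 h, and of -5.07 (standard error 0.48, edgeR FDR 0.0003) and -5.78 (standard error 0.16, edgeR FDR 3.9e-09) in ‘Alta’. For FvH4_3g33490 they were -2.80 (standard error 0.27, edgeR FDR 0.00028) and -3.48 (standard error 0.12, edgeR FDR 4.5e-07) in ‘NCGR1363’, and -4.36 (standard error 0.34, edgeR FDR 0.00014) and -6.78 (standard error 0.13, edgeR FDR 6.2e-10) in ‘Alta’. FvH4_1g28620, FvH4_5g00440, FvH4_1g03260, FvH4_4g36890, FvH4_7g16280 and FvH4_2g17250 also belonged to the 40, the last with -2.55 (standard error 0.28, edgeR FDR 0.00049) in ‘NCGR1363’ at 42 d. The call of FvH4_1g28620 in ‘Alta’ at 42 d was also lost when any of 4 of the 5 libraries was left out.

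The 4 crown transcripts were FvH4_5g33560, FvH4_4g33441, FvH4_6g21640 and FvH4_2g09570. FvH4_5g33560 was higher in crowns by 1.94 (standard error 0.34, edgeR FDR 0.0038) in ‘NCGR1363’ and by 1.16 (standard error 0.33, edgeR FDR 0.026) in ‘Alta’ at 42 d, a call that was lost when any of 4 of the 5 libraries was left out. FvH4_6g21640 had the largest ‘NCGR1363’ change in crowns of all members, 6.39, and nearly as large a change in ‘Alta’, 5.88. Its crown libraries held 632, 651 and 572 CPM at 42 d and 6.33, 6.08 and 8.34 CPM at 0 h in ‘NCGR1363’, against 2042 and 1067 CPM at 42 d and 15.6, 30.5 and 30.7 CPM at 0 h in ‘Alta’, so at both times every ‘Alta’ library was the higher. FvH4_2g09570 held 182, 229 and 199 CPM in crowns of ‘NCGR1363’ at 42 d, against 3.28, 11.2 and 5.59 CPM in its leaves.

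Calls in opposite directions in the genotypes were rare among all genes too. At 42 d the only such member was FvH4_7g22630 (0.45% of all genes tested in both genotypes, with 35.8% called in the same direction, as were 46 members), with a log2 fold change of crown over leaf of 2.36 (standard error 0.45, edgeR FDR 0.005) in ‘NCGR1363’ and of -3.34 (standard error 0.33, edgeR FDR 0.00033) in ‘Alta’. At 0 h there were 4, FvH4_3g10930, FvH4_5g23140, FvH4_5g15110 and FvH4_3g44480 (5.81% of all genes), against 59 members called in the same direction (48.1%), and whether tissue contrasts differ between genotypes was not tested. FvH4_3g10930, for example, had a crown over leaf log2 ratio of -1.46 (standard error 0.45, edgeR FDR 0.023) in ‘NCGR1363’ at 0 h, with 0.689, 0.601 and 1.18 CPM in crowns and 1.73, 1.94 and 0.748 CPM in leaves. These libraries overlapped in CPM and held few counts, 11, 9 and 17 in crowns and 32, 31 and 11 in leaves. In ‘Alta’ the ratio was 2.45 (standard error 0.22, edgeR FDR 9.7e-06), with 20.6, 19.0 and 18.9 CPM in crowns and 3.08, 1.94 and 1.50 CPM in leaves. For the comparison of ‘Alta’ at 42 d, including the left-out library left 0 members called by edgeR, with 33 at an unadjusted p under 0.05, and 19 called by DESeq2, while over all genes tested edgeR called 0.00533% and DESeq2 12.6%.

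**Figure D5:**
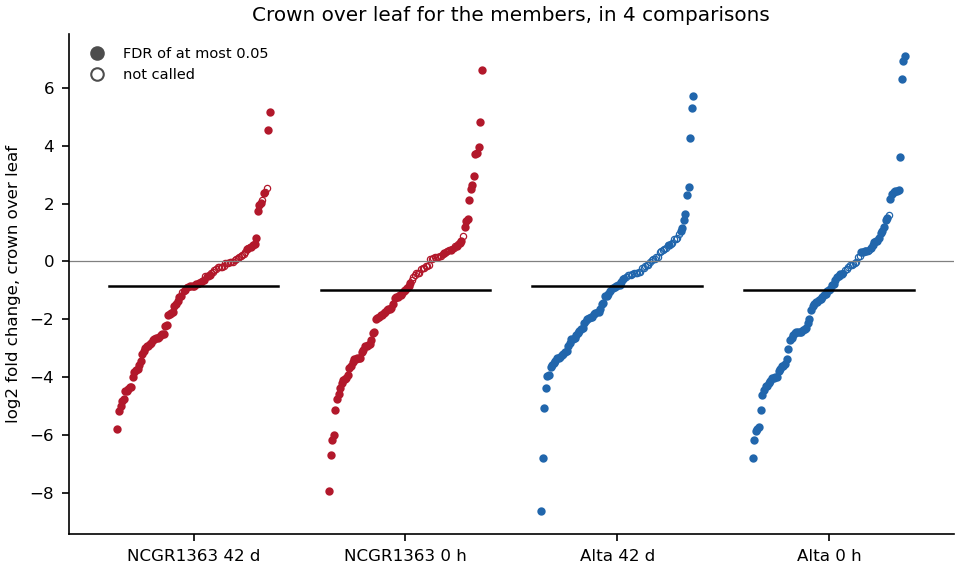
Log2 fold change of crown over leaf (vertical axis) of the members in 4 comparisons, ‘NCGR1363’ in red and ‘Alta’ in blue, with members sorted by value within each. Filled points have an edgeR FDR of at most 0.05, open points do not, black bars are medians, and in each comparison more filled points lie below 0 than above it, for example 52 against 11 in ‘NCGR1363’ at 42 d.

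Levels at 42 d spanned a wide range. The group mean of a member was between 5.15 and 3828 CPM in ‘NCGR1363’ crowns, with a median of 23.2 CPM, and between 0 and 1555 CPM in ‘Alta’ crowns, with a median of 20.1 CPM. In leaves at 42 d it was between 5.11 and 18953 CPM in ‘NCGR1363’, with a median of 45.9 CPM, and between 0 and 14234 CPM in ‘Alta’, with a median of 41.5 CPM. At 0 h the medians were 8.05 CPM in ‘NCGR1363’ and 12.2 CPM in ‘Alta’ for crowns, and 12.7 and 20.2 CPM for leaves. The coefficient of variation between replicates at 42 d had a median of 12.2% in ‘NCGR1363’ crowns, 20.4% in ‘NCGR1363’ leaves, 16.2% in ‘Alta’ crowns and 14.5% in ‘Alta’ leaves.

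The position of the members was read from their identifiers. Chromosomes 1 to 7 held 10, 16, 19, 12, 15, 10 and 18 members. Chromosome 6 held 10.0% of the members and 18.8% of expressed genes, chromosome 7 held 18.0% and 11.98%, and the other chromosomes were within 3 percentage points. Of the 372 genes, 17.2% were on chromosome 6 and 15.1% on chromosome 7. No member stood next to another in the order of identifiers, and the closest pair, FvH4_7g09820 and FvH4_7g09860, was 4 places apart. The median coding length of the leading isoform was 1090.5 bases, against 1176 bases over the 372 genes and 1164 bases over expressed genes.

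Of the members, 49 had a single isoform and 51 more than 1, where RSEM divided shared reads between isoforms. The isoform with the most counts was the same in ‘NCGR1363’ and ‘Alta’ at 42 d for 46 of 47 members compared in crowns and 47 of 48 in leaves. In ‘NCGR1363’ it was the same at 42 d and 0 h for 45 of 51 in crowns and 44 of 50 in leaves. FvH4_1g27090, with 19 isoforms, was one of the exceptions, since isoform 16 led in crowns of both genotypes at 42 d and isoform 2 at 0 h, and isoform 2 held 19.8% of its counts in ‘NCGR1363’ crowns at 42 d and 52.1% at 0 h.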

How the data were processed

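RNA of crowns and leaves was sequenced as strand-specific paired-end libraries of 150 base reads. The authors aligned reads to the predicted transcripts of the F. vesca v4.0.a2 annotation with Bowtie2 and deposited expected counts per gene and per isoform from RSEM, which came as whole numbers, 12818719 to 18487934 per library. Groups followed the sample titles. CPM and log2(CPM + 0.5) were computed from the gene counts by column total, without ‘Alta’ crown 42 d replicate 3. Differential expression was tested with edgeR version 4.0.16 (quasi-likelihood F-test, TMM normalization) in R version 4.3.3 on genes that reached 0.5 CPM in 2 or more libraries, with a Benjamini-Hochberg FDR of at most 0.05 over all genes tested, and DESeq2 version 1.42.0 was an alternative. The procedure was tested on simulated counts. The labels name biological replicates without saying which plants were pooled.

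The members and lists were chosen with earlier results of these data known. Named members are the 12 with the largest smaller difference, the 8 with the highest mean CPM in ‘NCGR1363’ at 42 d and the 2 of the interval list, in all 21, and any other member named was chosen after its values were seen. Replicate numbers were checked for pairing of crown and leaf. In ‘NCGR1363’ at 42 d, deviations of same-numbered libraries from the group means correlated by 0.109, 0.375 and 0.202, over 0.1 in each pair. This was not so in ‘NCGR1363’ or ‘Alta’ at 0 h and could not be decided from the 2 pairs of ‘Alta’ at 42 d. Libraries of unlike number were not compared and the labels name no pairs, so pairing was not established. The main tests took the libraries as unpaired. Alternatives were other scalings, tools, filters, pseudocounts, a replicate block and leaving out each library.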

Additional observations from a re-analysis of the deposited data

Results flagged for a closer look

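In crowns, 15 members were higher in every ‘NCGR1363’ library and lower in every ‘Alta’ library used at 42 d than at 0 h (4.32% of expressed genes). FvH4_7g22630, FvH4_5g13590, FvH4_6g39260 and FvH4_5g33560 were among them. With the left-out library the count was 12, and FvH4_3g42560, one of the 15, had no more than 4 counts in any ‘Alta’ library. In leaves, 3 members had this pattern (0.876%), FvH4_3g33490, FvH4_1g28620 and FvH4_5g23140. Opposite directions in the genotypes were read from the libraries, and the edgeR interaction of genotype and cold was called for all 15 in crowns and all 3 in leaves. It was called for 45 members in crowns (35.9% of all tested genes) and 39 in leaves (17.7%) in all. The choice of members used that contrast, so these calls are a description. In the left-out library, ‘Alta’ crown 42 d replicate 3 by its label, 37 members were above and 36 below all 5 other ‘Alta’ crown libraries, and the median absolute distance of the members on the log2 scale was 0.25 to the mean of ‘Alta’ leaves at 0 h and 1.61 to that of ‘Alta’ crowns at 42 d.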

How the results depend on the processing

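The list of members depended on the processing. Of the 100, 83 were chosen with the library labelled ‘Alta’ crown 42 d replicate 3, 94 with a pseudocount of 0.1, 91 with 1, 80 with TMM scaling, 69 with a CPM minimum of 1, and 84 to 98 without each library in turn, with 46 chosen in all 23 cases. Including that library left 0 members called between crown and leaf in ‘Alta’ at 42 d by edgeR (33 at an unadjusted p under 0.05) and 19 by DESeq2 (a test added after seeing the data). Over all genes tested, edgeR called 0.00533% and DESeq2 12.6% in that comparison. That library gave 15 for the crown interaction (6.43% of all tested genes). With it the median genotype difference in crowns at 42 d was 0.47, and TMM scaling gave 0.18 there and -0.36 in leaves at 0 h. Without each library in turn the counts of members called between crown and leaf were 57 to 75 in ‘NCGR1363’ at 42 d, 65 to 76 at 0 h, 54 to 61 in ‘Alta’ at 42 d and 77 to 82 at 0 h, and for the interaction 40 to 49 in crowns and 30 to 47 in leaves. Where 1 ‘Alta’ crown library remained, it was assumed to vary like the others. With a replicate block the counts were 60, 67, 66 and 78 for these tissue comparisons, and 43 and 38 for the interactions. In ‘Alta’ at 42 d the same-numbered crown and leaf libraries deviated together with r = 0.217 and 0.198, but only 2 pairs were left, too few to take the numbers as pairing. DESeq2, its size factors and no filter kept every count within 1.5 times. For the members named by rule, over the 4 tissue comparisons and without the alternatives that include the left-out library, 744 values kept their direction and call, 13 passed the threshold only in the alternative, 13 missed it, and 1 turned round, FvH4_7g00250 in ‘NCGR1363’ at 0 h, whose log2 fold change without each library in turn was -1.55 to 0.27, the highest without leaf replicate 1. Of the 13 that gained a call, 6 did so without ‘NCGR1363’ leaf 42 d replicate 2. The calls of FvH4_1g28620 and FvH4_5g33560 in ‘Alta’ at 42 d and of FvH4_1g20810 in ‘NCGR1363’ at 42 d were lost most often. With the left-out library 17 values in ‘Alta’ at 42 d missed the threshold over both tools, and FvH4_3g33490 turned round in edgeR, to 0.29. The causes were not tested. The total counts limit members of a few CPM most.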
